A study of Mus musculus with 2 samples.

Results

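Cxcr2, the gene of a chemokine receptor of neutrophils, and the genes of 4 of its ligands, Cxcl1, Cxcl2, Cxcl3 and Cxcl5, were read in single cells of allergic ear skin. These 5 genes were listed by name and are 5 of the 35208 gene rows of the cDNA matrix. The cells came from WT BALB/c mice and from Ccr2-/- mice, which lack the chemokine receptor that inflammatory monocytes use to enter tissue. All mice carried injected IgE against the hapten TNP (300 µg) and were challenged in the ear skin with 10 µg of TNP-conjugated ovalbumin, a model called IgE-dependent chronic allergic inflammation (IgE-CAI). Ear cells taken 3 or 5 days after the challenge made 4 pools, and 4 values in a row are always given for WT at day 3 and day 5 and then Ccr2-/- at day 3 and day 5. Pairs of values for a genotype are for day 3 and then day 5. Each pool carried its own hashtag antibody, and the pools were mixed for 1 cDNA library and 1 hashtag library. There was 1 pool per genotype and day, the labels do not say how many mice it held, and ears that received ovalbumin alone were not analysed here.

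CXCR2 is a G protein-coupled receptor that draws neutrophils out of the blood and through tissue toward a source of its ligands. The ligands are small secreted chemokines that carry a glutamate-leucine-arginine (ELR) motif before their first cysteines. Macrophages, fibroblasts, endothelial cells and neutrophils make them when IL-1, TNF or microbial products activate the transcription factor NF-kappaB, and in skin they are best known for bringing neutrophils to inflamed sites. CXCL12 and its receptor CXCR4 do the opposite and hold neutrophils in the bone marrow.

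The ligand genes lie next to one another on chromosome 5 (GRCm38, plus strand), each with 4 exons. Cxcl5 is at 90759360 to 90761624, Cxcl3 at 90786103 to 90789600, Cxcl1 at 90891241 to 90893115 and Cxcl2 at 90903871 to 90905938. They span 146579 bases, with the platelet chemokine genes Ppbp and Pf4 between Cxcl5 and Cxcl3, and the lung chemokine gene Cxcl15 between Cxcl3 and Cxcl1. No protein-coding gene lies between Cxcl1 and Cxcl2, which are 10755 bases apart. Cxcr2 is at 74153989 to 74161246 on chromosome 1 (plus strand) and has 3 exons. No annotated gene overlaps any of the 5. Cxcl2 and Cxcl3 shared 80 stretches of 31 bases in their transcripts, which is 4.3% of those of Cxcl2 and 8.11% of those of Cxcl3, so some reads of these genes could have been counted for the other. No other pair of the 5 shared such a stretch.

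Because these neighbours were read in different cells, the sequence just before their starts is shown, from RefSeq tables for GRCm38.p6, on the plus strand. Capitals mark the letters GGAATTTCC, a binding site of the kappaB type, which were searched on both strands.
Cxcl1, chr5:90891125-90891240: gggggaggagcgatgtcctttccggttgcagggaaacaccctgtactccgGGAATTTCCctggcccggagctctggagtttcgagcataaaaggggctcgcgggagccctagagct
Cxcl2, chr5:90903779-90903870: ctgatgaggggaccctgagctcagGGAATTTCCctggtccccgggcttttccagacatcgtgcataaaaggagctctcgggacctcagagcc
Cxcl3, chr5:90785981-90786100: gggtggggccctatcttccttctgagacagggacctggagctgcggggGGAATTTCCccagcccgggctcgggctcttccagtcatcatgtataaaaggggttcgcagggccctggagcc
The site begins 70, 96 and 72 bases before the RefSeq starts of Cxcl1, Cxcl2 and Cxcl3. These letters were in the 120 bases before the start of 46 of 32851 genes with a promoter in the table, or 0.14%. The matching stretch of Cxcr2 did not hold them, and Cxcl5 had no entry.

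After 570 barcodes with several hashtags and 760 with few hashtag reads were set aside, with those over the mitochondrial limit, 7118 cells of a single pool were kept, and 5830 of these were gated to a cell type by marker genes that included none of the 5. Pools had 1037 to 2347 cells and 68064673 to 162572556 reads. Counts are reads and not molecules. Levels are given as reads of the gene per 1000000 reads of all cells of a type in a pool (CPM), with a 95% Poisson interval that covers counting error alone. Shares of cells with a read were taken after each cell was thinned to 5000 reads, because neutrophil-like cells had a median of 9608 reads and fibroblast-like cells 97482.5. Shallower cells were left out of those shares. Ccr2, the targeted gene, had 935 and 709 CPM in WT mononuclear phagocyte-like cells, against 77.2 and 94.0 in Ccr2-/-. The gates held 53, 5, 358 and 722 neutrophil-like cells, 457, 447, 133 and 95 mononuclear phagocyte-like cells and 425, 325, 855 and 701 fibroblast-like cells of the 4 pools. Neutrophil-like cells carried S100a8 and S100a9, the calprotectin genes, in 94.1% and 97.6% of cells. Ly6g, another neutrophil marker, was read in 2.81% of them.

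The receptor gene was highest in neutrophil-like cells. Cxcr2 had 2399 CPM (interval 2259 to 2546) in WT day 3, 3272 CPM (3217 to 3328) in Ccr2-/- day 3 and 2823 (2786 to 2861) in Ccr2-/- day 5. The 5 neutrophil-like cells of WT day 5 held 124 Cxcr2 reads. Thinning kept 43 of 53, 335 of 358 and 659 of 722 neutrophil-like cells of WT day 3 and of Ccr2-/- at days 3 and 5. Of the cells kept, 83.7%, 92.5% and 90.1% had a Cxcr2 read. The share in WT day 3 (interval 69.3 to 93.2%) overlapped those in Ccr2-/- (89.2 to 95.1% and 87.6 to 92.3%), whereas its CPM was below both. Without thinning the shares were 77.4%, 92.5% and 91.8%. The means of the 2 pools of a genotype were 2426 CPM in WT against 3048 in Ccr2-/-, with the 5 cells of WT day 5 as 1 of the pools. Permuting the pools exactly gave a two-sided p of 0.33 (exact permutation test), and 2 pools against 2 cannot give a lower one.

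Basophil-like cells came next in WT day 3 and Ccr2-/- day 3 among types with 20 or more cells. Cxcr2 had 313.6 CPM in WT day 3 (26 cells), 308 CPM in Ccr2-/- day 3 (69 cells) and 255 CPM in Ccr2-/- day 5 (67 cells), and their intervals lay between 230 and 369 CPM. A read was found in 40.6% of thinned basophil-like cells, beside 9.6% of T cell-like cells at similar depth (median 19134 and 16508 reads). The neutrophil genes S100a8 and S100a9 together had 19.2, 19.3 and 128 CPM in these cells, beside 20.8 to 36.4 CPM in T cell-like cells. For each 100 reads of S100a8 and S100a9, basophil-like cells had 1633, 1593 and 198 reads of Cxcr2, and neutrophil-like cells had 3.76, 9.54 and 6.71. The 9 neutrophil markers, which include Hdc, a histamine gene that basophils also express, summed to 4951, 4891 and 5472 CPM in basophil-like cells with 6 of 9 read in each pool, beside 48.6 to 63.6 CPM in T cell-like cells. Ly6g and Retnlg were at 0 in basophil-like cells of all 3 pools. The part of neutrophil RNA or of doublets in the basophil values was not tested further.

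In the other types with 20 or more cells in each pool, the level was low. Cxcr2 had 12.1 to 19.5 CPM in fibroblast-like cells, 15.0 to 19.1 in mononuclear phagocyte-like cells and 18.8 to 53.6 in blood endothelial-like cells. T cell-like cells of the pools with 20 or more cells had 12.0 to 24.2 CPM. Thinned shares of 7.8% in fibroblast-like and 9.6% in T cell-like cells set the background against which the shares above were read. Eosinophil-like cells of Ccr2-/- day 5 had 272 CPM, above the basophil-like cells of that pool, with 89.0% of these reads in 1 cell.

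Where the receptor reads lay differed between pools along with the number of neutrophil-like cells. Neutrophil-like cells held 40.8% of the Cxcr2 reads of WT day 3 and 10.0% of those of WT day 5, and 77.5% and 82.9% of those of Ccr2-/- days 3 and 5. They were 3.43%, 0.48%, 16.3% and 30.8% of the cells of these pools. In WT day 5, fibroblast-like cells at 14.4 CPM held 36.1% of the Cxcr2 reads and mononuclear phagocyte-like cells at 16.4 CPM held 35.2%. Cells were recovered by density separation, so shares of cells depend on recovery as well as on the skin.

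**Figure D1:**
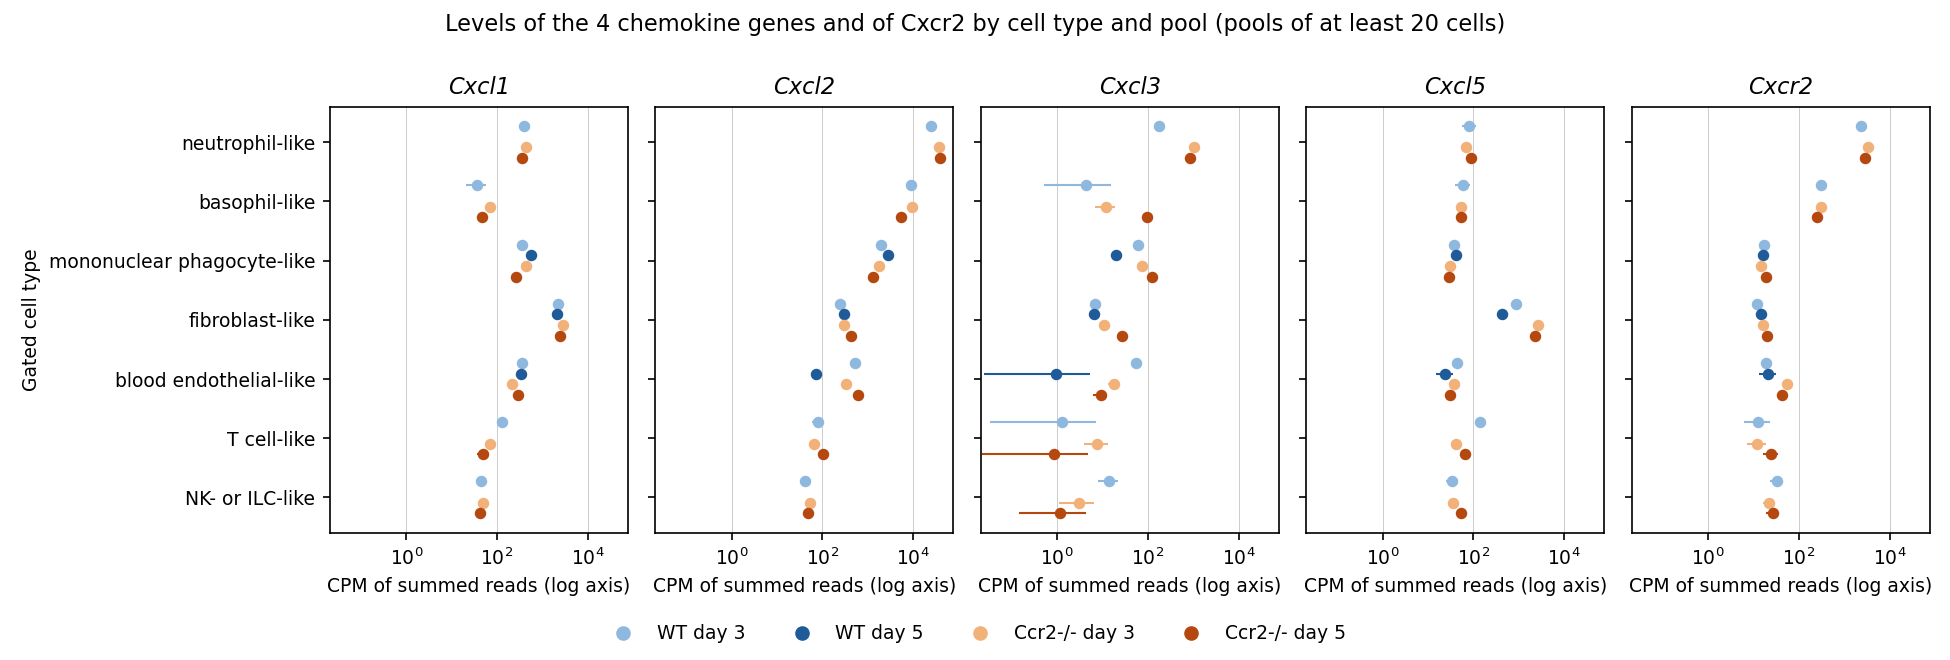
CPM of Cxcl1, Cxcl2, Cxcl3, Cxcl5 and Cxcr2 (log axis) in 7 gated cell types, with 1 point per pool of at least 20 cells and bars for the 95% Poisson interval. Cxcr2 and Cxcl2 are highest in neutrophil-like cells and next in basophil-like cells, and Cxcl1 and Cxcl5 are highest in fibroblast-like cells, where the Cxcl5 points of the Ccr2-/- pools (2705 and 2313) lie to the right of those of WT (869 and 430).

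Cxcl2, also known as MIP-2, was highest in neutrophil-like cells, with lower levels in basophil-like and mononuclear phagocyte-like cells. Neutrophil-like cells had 25318 CPM in WT day 3 (interval 24857 to 25784), 37691 in Ccr2-/- day 3 (37502 to 37881) and 38698 in Ccr2-/- day 5 (38560 to 38838). The 5 cells of WT day 5 held 1577 reads, 59.3% of them in 1 cell. A read was found in 90.7%, 96.4% and 98.0% of thinned cells of WT day 3, Ccr2-/- day 3 and Ccr2-/- day 5. The level of WT day 3 was the lowest of these 3, and the Ccr2-/- day 3 level was 1.49 times as high, without a replicate of either pool.

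In basophil-like cells Cxcl2 had 8820, 9462 and 5278 CPM in WT day 3, Ccr2-/- day 3 and Ccr2-/- day 5. The share of thinned cells with a read was 57.7%, 60.3% and 60%, beside 24.1% of T cell-like cells over all pools. A single cell held 21.3%, 15.9% and 22.6% of these reads. The median basophil-like cell had 142, 1186 and 401 CPM of Cxcl2, and the highest cells had 46783, 70919 and 76397 CPM. The levels of these cells thus lay far above their median cell. The median neutrophil-like cell of the same pools had 18381, 32597 and 34377 CPM. For each 100 reads of S100a8 and S100a9 there were 45944, 48986 and 4112 reads of Cxcl2 in basophil-like cells, and 39.7, 110 and 92.0 in neutrophil-like cells. The part of neutrophil RNA or of doublets in the Cxcl2 values of basophil-like cells was not tested further.

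Mononuclear phagocyte-like cells had a lower Cxcl2 level but many of the reads in WT. Their level was 1973 CPM (1956 to 1990) in WT day 3, 2719 CPM (2699 to 2739) in WT day 5, 1767 (1742 to 1792) in Ccr2-/- day 3 and 1312 (1288 to 1337) in Ccr2-/- day 5. Both Ccr2-/- levels lay below both WT levels. The Ccr2-/- day 5 level was 0.48 times that of WT day 5, past a limit of 2-fold lower that 6.27% of 8855 genes passed. Over both days edgeR gave a log2 fold change of -0.57 (SE 0.24, adjusted p = 0.36).

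These cells were split into subsets by monocyte, macrophage and tissue-resident marker genes. Over all pools Cxcl2 had 2107 CPM in monocytes (Ly6c2, Plac8 and Chil3), 1648 in early macrophages (Pdcd1lg2), 2917 in late macrophages (Gpnmb) and 2046 in resident-type macrophages (Lyve1, Selenop and Cd163). In WT it was higher at day 5 than at day 3 in each of the 3 macrophage subsets, at 2289 against 1252 CPM in early, 3409 against 2866 in late and 2567 against 1883 in resident-type cells. The WT day 5 pool had too few monocytes to be compared. The mix of cells within the mononuclear phagocyte-like gate differed between pools, and its part in the difference between genotypes was not tested.

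Fibroblast-like cells had 249 to 434 CPM of Cxcl2 and T cell-like cells 64.9 to 104 CPM in the pools of at least 20 cells. Blood endothelial-like cells had 529, 72.1, 331 and 619 CPM in the 4 pools. In WT day 3, 1 cell held 66.1% of these reads. S100a8 and S100a9 had 77.8, 10.4, 529 and 631 CPM in the same cells, and the 9 neutrophil markers summed to 384, 44.6, 618 and 934 CPM. All 3 values were lowest in WT day 5 and highest in Ccr2-/- day 5. Between genotypes at day 3 the marker sum was higher and Cxcl2 was lower in Ccr2-/-. S100a8 and S100a9 made up 529 of the 618 CPM in Ccr2-/- day 3 and 77.8 of the 384 CPM in WT day 3. The rest of the marker sum was thus lower in Ccr2-/- at day 3, as Cxcl2 was. The part of neutrophil RNA in the endothelial values was not tested.

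The cells that held the Cxcl2 reads differed between genotypes. Mononuclear phagocyte-like cells held 59.7% and 83.1% of them in WT at days 3 and 5, and 8.1% and 2.7% in Ccr2-/-. Neutrophil-like cells held 13% and 1.8% in WT, and 62.9% and 74.6% in Ccr2-/-. Such a share joins the number of cells with the reads per cell. Over all cells of a pool Cxcl2 had 991, 1269, 1490 and 2690.1 CPM in the 4 pools.

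**Figure D2:**
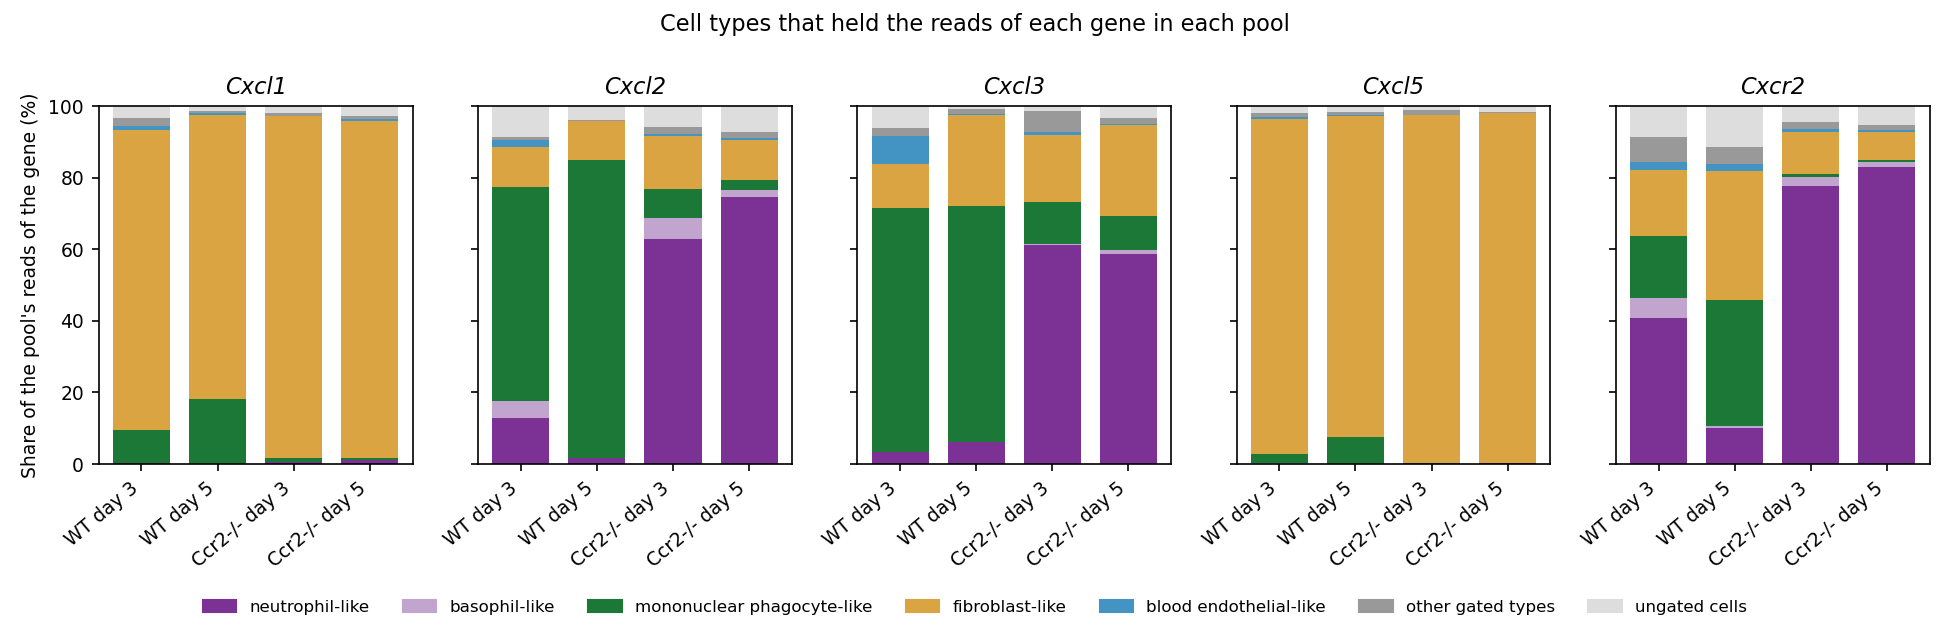
Share of all reads of each gene in a pool (%, stacked to 100) that lay in cells of each gated type, for the 4 pools. For Cxcl2 the largest part is mononuclear phagocyte-like in WT (59.7% and 83.1%) and neutrophil-like in Ccr2-/- (62.9% and 74.6%), while for Cxcl1 and Cxcl5 it is fibroblast-like in every pool.

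Cxcl3, whose product is close to that of Cxcl2, was read in few cells. Neutrophil-like cells had 174 CPM in WT day 3, 1056 (1024 to 1088) in Ccr2-/- day 3 and 840.2 (820 to 861) in Ccr2-/- day 5. The ratio at day 3 was 6.08, and 21% of 6916 genes were at least 2-fold higher in the same pair of pools, which had 358 and 53 cells. The WT day 3 level rested on 79 reads in 3 cells, and without the cell with the most reads it was 53.7 CPM. A Cxcl3 read was found in 2.3% (interval 0.1 to 12.3%), 33.4% (28.4 to 38.8%) and 27.6% (24.2 to 31.2%) of thinned neutrophil-like cells of WT day 3, Ccr2-/- day 3 and Ccr2-/- day 5. The 5 cells of WT day 5 held 50 reads in 2 cells. Among thinned neutrophil-like cells of all pools, 295 of the 297 cells with a Cxcl3 read also had a Cxcl2 read. As given above, Cxcl2 was read in the great majority of thinned neutrophil-like cells in any case. These genes also share stretches of transcript, so some reads could have been counted for the other.

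In Ccr2-/- the Cxcl3 level was higher in neutrophil-like cells that carried the stefin A genes (Stfa1, Stfa2, Stfa2l1, Stfa3 and BC100530), which code for protease inhibitors. It was 1334 CPM in 105 such cells and 914 CPM in 253 others at day 3, and 1077 CPM in 223 such cells and 721 CPM in 499 others at day 5. Neither pair of intervals overlapped, but these intervals cover counting error alone and not the spread between cells. Over all neutrophil-like cells of Ccr2-/- at day 3 and day 5, the median cell had 0 CPM of Cxcl3. The highest cells had 19554 and 30844 CPM. Whether cells with and without the stefin A genes differed beyond this spread was not tested, with 1 pool at each day. Cxcr2 was not higher in cells with the stefin A genes, with 3215 against 3301 CPM at day 3 and 2819 against 2825 CPM at day 5.

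Mononuclear phagocyte-like cells had 59.0, 20.1, 73.0 and 123 CPM of Cxcl3 in the 4 pools. The Ccr2-/- day 5 level was 6.12 times that of WT day 5, and 6.27% of 8855 genes were at least 2-fold higher there. Over both days the log2 fold change was 1.49 (SE 0.56, adjusted p = 0.31 in edgeR and 0.015 in DESeq2). However, 1 cell held 76.2% of the reads of Ccr2-/- day 3 and 1 cell held 73.8% of those of Ccr2-/- day 5, and thinned shares with a read were 6.6%, 3.6%, 4.0% and 5.3%. Mononuclear phagocyte-like cells held 68.2% and 65.9% of all Cxcl3 reads in WT, and 11.7% and 9.3% in Ccr2-/-. For neutrophil-like cells these shares were 3.4% and 6.2%, and 61.3% and 58.6%.

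Cxcl1, also known as KC, was a gene of the fibroblasts in every pool. Fibroblast-like cells had 2159.9 CPM (2146 to 2174) in WT day 3, 2102 CPM (2086 to 2118) in WT day 5, 2872 (2863 to 2882) in Ccr2-/- day 3 and 2498 (2488 to 2508) in Ccr2-/- day 5. Both Ccr2-/- pools lay above both WT pools, by 1.33 times at day 3 and 1.19 times at day 5. The thinned share of cells with a read was 71.3%, 81.0%, 86.9% and 81.2%, so at day 5 the shares were alike within their intervals (76.3 to 85.1% and 78.1 to 84.1%). Fibroblast-like cells held 83.8%, 79.4%, 95.3% and 94.1% of the Cxcl1 reads of the 4 pools. Without cells of over 100000 reads the day 5 levels were 1719 CPM in WT and 1710.2 CPM in Ccr2-/-, a ratio of 0.995.

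Other types had less Cxcl1. Mononuclear phagocyte-like cells had 362, 566, 430 and 257 CPM in the 4 pools, blood endothelial-like cells 364, 340, 216 and 287 CPM, and T cell-like cells 48.5 to 129 CPM in the pools of at least 20 cells. The Ccr2-/- day 5 level in mononuclear phagocyte-like cells was 0.454 times that of WT day 5, past the limit that 6.27% of genes passed. In Ccr2-/- 6 and 3 of these cells held 50% of the Cxcl1 reads, and without cells of over 100000 reads the levels were 202 and 159 CPM, beside 371 and 581 in WT. Collagen genes, which fibroblasts make in large amounts, were also read in other types. For each 100 reads of Col1a1 and Col1a2 there were 82.5 to 144 reads of Cxcl1 in mononuclear phagocyte-like cells and 47.8 to 67.6 in neutrophil-like cells. Fibroblast-like cells had 6.28 to 13.5 and basophil-like cells 7.33 to 14.0. The median neutrophil-like cell had 0 CPM of Cxcl1 in WT day 3 and in both Ccr2-/- pools. In these pools 1 of 53, 10 of 358 and 15 of 722 neutrophil-like cells held at least 50% of their Cxcl1 reads.

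Cxcl5, also known as LIX, was the ligand with the largest difference between genotypes in fibroblast-like cells. Fibroblast-like cells had 869 CPM (interval 860 to 879) in WT day 3, 430.4 CPM (423 to 438) in WT day 5, 2705 (2696 to 2714) in Ccr2-/- day 3 and 2313 (2304 to 2323) in Ccr2-/- day 5. The 2 Ccr2-/- pools did not overlap the 2 WT pools. At day 3 the Ccr2-/- level was 3.11 times that of WT, where 0.725% of 9101 genes were at least 2-fold higher. At day 5 it was 5.38 times that of WT, where 3.05% of 9154 genes were. Within WT, day 5 was 0.495 times day 3, where 1.3% of 9172 genes were at least 2-fold lower. In Ccr2-/- the days differed by a ratio of 0.855. In the same cells, Cxcl3 went from 10.8 to 27.0 CPM between the days in Ccr2-/-, 2.50 times, where 0.532% of 9018 genes were at least 2-fold higher. These Cxcl3 reads lay in few cells, with 50% of them in 5 of 855 and 6 of 701 cells, and thinned shares with a read of 2.4% and 3.4%. Without cells of over 100000 reads the levels were 2.70 and 24.1 CPM.

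The share of thinned fibroblast-like cells with a Cxcl5 read was 27.8% (23.6 to 32.3%) and 28.3% (23.5 to 33.6%) in WT, and 51.7% (48.3 to 55.2%) and 52.8% (49.0 to 56.6%) in Ccr2-/-. The genotypes thus did not overlap in this share, while the days were alike within their intervals. Fibroblast-like cells held 93.6%, 89.6%, 97.4% and 97.7% of all Cxcl5 reads of the 4 pools. Other types with 20 or more cells had 19.3 to 220.0 CPM. In mononuclear phagocyte-like cells the level was 36.9, 42.4, 31 and 29.2 CPM, beside 430.4 to 2705 CPM in fibroblast-like cells. For each 100 collagen reads these cells had 7.08 to 10.8 reads of Cxcl5, and fibroblast-like cells had 1.29 to 12.5. The pools were mixed for 1 cDNA library, so levels by pool cannot tell fibroblast RNA from reads of the phagocytes. The part of fibroblast RNA in these values was not tested.

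Few fibroblast-like cells held most of the Cxcl5 reads. It took 10 of 425 cells in WT day 3, 7 of 325 in WT day 5, 59 of 855 in Ccr2-/- day 3 and 51 of 701 in Ccr2-/- day 5 to reach 50% of the reads. The median cell had 36.3, 31.8, 76.9 and 99.4 CPM, and the highest cells had 13471, 7030.3, 14780 and 14850 CPM. Cells of over 100000 reads carried much of this signal. Without them the levels were 274, 125, 794 and 752 CPM, and the Ccr2-/- pools were 2.90 and 6.02 times WT. As the mean over cells the levels were 451, 235, 1805 and 1606 CPM, and the ratios were 4.0 and 6.82. Depth moved with genotype in these cells, with medians of 66754 and 70372 reads in WT and 121765 and 113275 in Ccr2-/-. Its part in the difference between genotypes was not tested beyond these values.

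The Cxcl5 level followed fibroblast subsets set by other genes. Cells with the acute-phase genes Saa3, Lcn2 and Hp, called inflammatory here, had 1941 and 1367 CPM in WT against 4136 and 3132 in Ccr2-/-. Cells with Scara5, Pi16, Dpp4 and Cd55, markers of resting-type fibroblasts, had 318 and 106 CPM in WT against 1193 and 741 in Ccr2-/-. Cells of neither list had 876 and 650.5 CPM in WT against 2433 and 2297 in Ccr2-/-. Inflammatory cells were thus above resting-type cells in each of the 4 pools. Within each subset the Ccr2-/- level was higher than WT at both days, by 2.13 and 2.29 times in inflammatory cells, 3.76 and 6.97 times in resting-type cells and 2.78 and 3.53 times in the rest. The inflammatory subset made up 12.5% and 5.5% of fibroblast-like cells in WT (53 and 18 cells), and 22.5% and 29.1% in Ccr2-/- (192 and 204 cells).

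Cxcl1 varied less among these subsets. Inflammatory cells had 3015, 2855, 3254 and 2917 CPM of Cxcl1 in the 4 pools. Resting-type cells had 1468, 1706, 2599 and 1920.0 CPM. Between genotypes the ratio of Cxcl1 was 1.08 and 1.02 in inflammatory cells, 1.77 and 1.13 in resting-type cells, and 1.16 and 0.975 in the rest, below that of Cxcl5 in the same subset and day in all 6 cases.

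**Figure D3:**
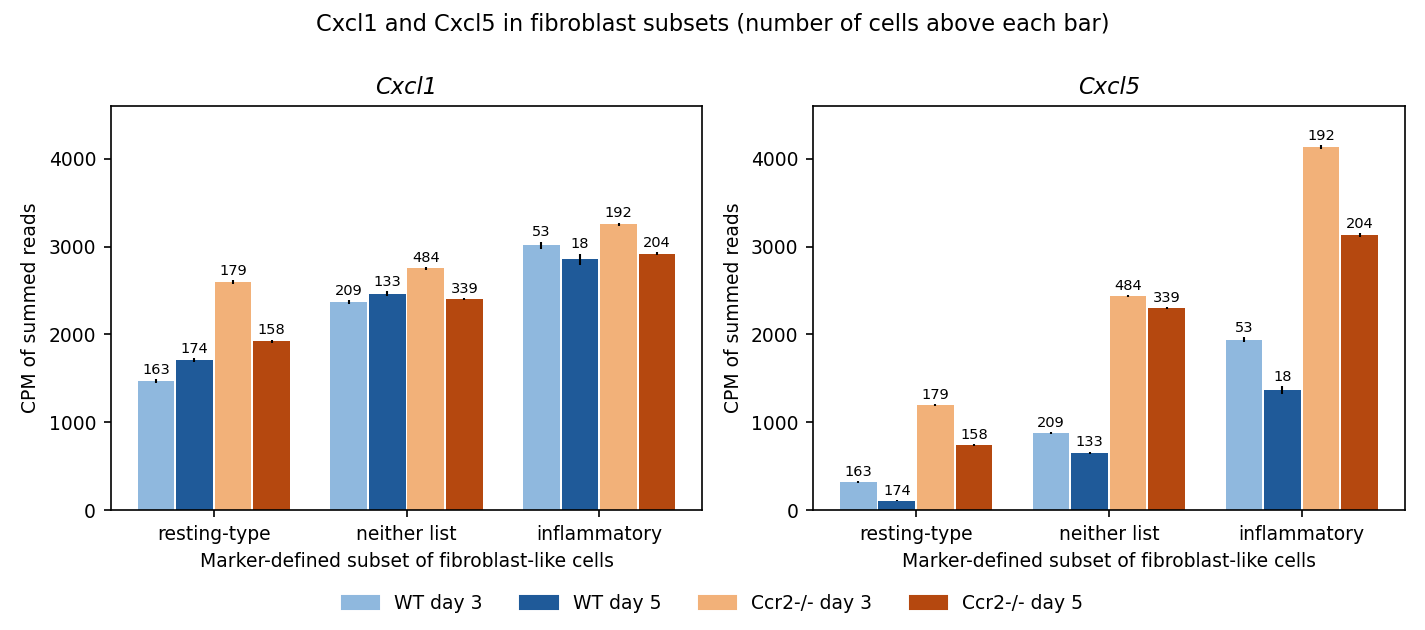
CPM of Cxcl1 (left) and Cxcl5 (right) in 3 marker-defined subsets of fibroblast-like cells, with 1 bar per pool, 95% Poisson intervals as error bars and the number of cells above each bar. Cxcl5 is higher in the Ccr2-/- pools than in the WT pools of the same day in each subset, and highest in inflammatory cells of Ccr2-/- day 3 (4136).

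The ligands were read together in single cells. Of 2267 thinned fibroblast-like cells, 1846 had a Cxcl1 read and 1004 had a Cxcl5 read. Cxcl5 was read in 49.8% of cells with Cxcl1 and in 20.2% of cells without it. None of the 4 ligands was read in 11.4% of these cells, 1 ligand in 35.2%, and 2 or more in the rest. Of 1042 thinned neutrophil-like cells, 919 had reads of both Cxcr2 and Cxcl2. Among the 1042, Cxcl2 was read in 97.4% of cells with Cxcr2 and in 95.9% of cells without it.

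Genotypes were then compared over both days with edgeR, in fits across all genes where the 2 days stood as the only replicates of a genotype. In fibroblast-like cells 0 of 20606 genes passed an adjusted p of 0.05 (0%), while 4450 had an unadjusted p below it. DESeq2 called 1832 of 15120 genes (12.1%), and edgeR without a filter on low counts called 996 of 31730 (3.14%). Cxcl5 had a log2 fold change of 2.06 (SE 0.19), with an adjusted p = 0.053 in edgeR, 6.4e-29 in DESeq2 and 0.0037 in edgeR without the filter. Over 9 alternatives, of which 4 left out a pool together with the day term, its log2 fold change lay between 1.56 and 2.58, its adjusted p between 6.4e-29 and 0.30, and it passed in 3. The mean level was 649.8 CPM in WT against 2509 in Ccr2-/- (exact permutation p = 0.33, n = 2 pools each).

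The other 4 genes also had positive values in fibroblast-like cells. The log2 fold change was 0.36 (SE 0.08) for Cxcl1, 0.44 (SE 0.10) for Cxcl2, 1.36 (SE 0.36) for Cxcl3 and 0.47 (SE 0.16) for Cxcr2. Their adjusted p in edgeR was 0.090, 0.099, 0.13 and 0.18, and in DESeq2 0.062, 0.024, 0.0011 and 0.23. Each kept its sign in all 9 alternatives. The median over the 5 genes was 0.47, beside 0.01 over all genes tested. In these cells the 9 neutrophil markers summed to 70.8 and 55.7 CPM in WT against 90.3 and 121 in Ccr2-/-. Of this list, S100a8 and S100a9 together had 21.2, 27.3, 52.9 and 87.3 CPM, whereas Csf3r had 5.98, 6.52, 5.36 and 6.64 CPM. The markers thus did not all move with the genotype. The part of neutrophil RNA in the values of Cxcl2, Cxcl3 and Cxcr2 was not tested.

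In mononuclear phagocyte-like cells 0 of 16434 genes passed (0%), 2427 had an unadjusted p below 0.05, DESeq2 called 607 of 13197 (4.6%) and edgeR without the filter called 802 of 27694 (2.9%). Here the log2 fold change was -0.41 (SE 0.35) for Cxcl1, -0.57 for Cxcl2, 1.49 for Cxcl3, -0.36 (SE 0.24) for Cxcl5 and 0.04 (SE 0.31) for Cxcr2. Cxcl3 passed in DESeq2 and without the filter, and none of the others passed in any of 9 alternatives. The median over the 5 genes was -0.36, beside -0.03 over all genes tested. The sign of Cxcr2 turned in 4 of the alternatives.

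**Figure D4:**
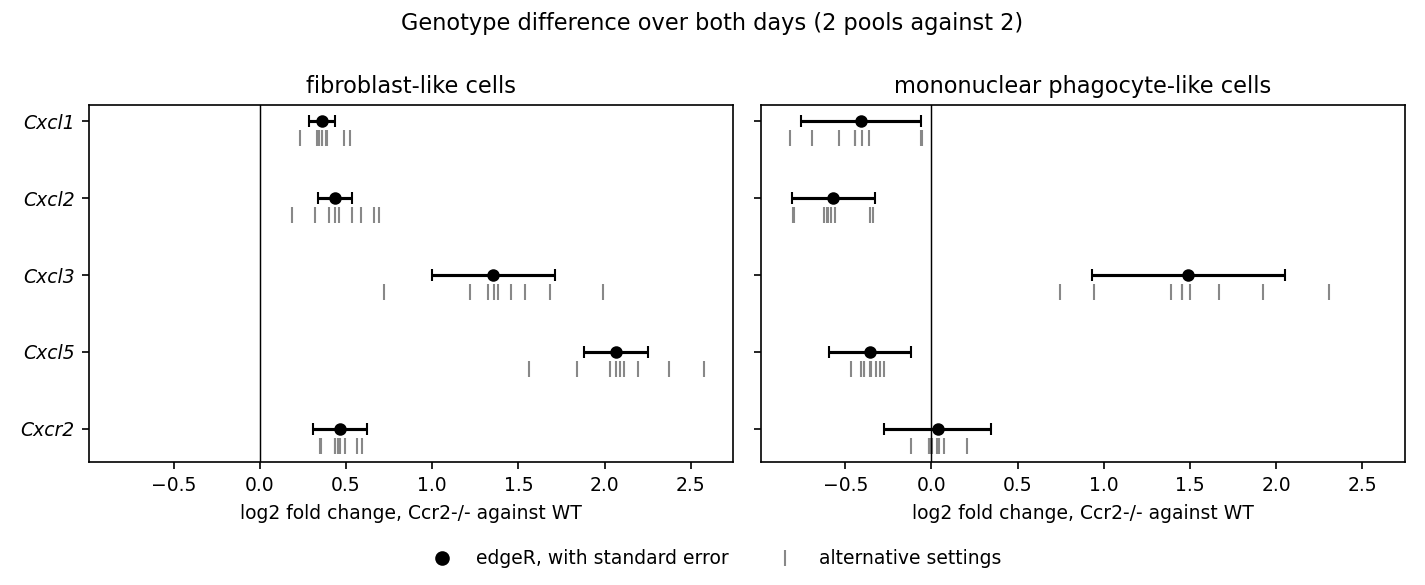
Log2 fold change of Ccr2-/- against WT over both days for the 5 genes, in fibroblast-like cells (left) and mononuclear phagocyte-like cells (right). Black points are edgeR values with standard errors, and grey ticks are the 9 alternative settings. All values of Cxcl5 in fibroblast-like cells lie between 1.56 and 2.58, and those of Cxcr2 in mononuclear phagocyte-like cells lie on both sides of 0.

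Days were compared in the same fits. In fibroblast-like cells edgeR called 0 genes, 1364 had an unadjusted p below 0.05 and DESeq2 called 143. The log2 fold change of day 5 against day 3 was -0.62 (SE 0.18, adjusted p = 0.69 in edgeR and 0.038 in DESeq2) for Cxcl5 and 0.39 (SE 0.10, adjusted p = 0.67) for Cxcl2.

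The rest of the pathway was read from a list of 24 genes: other ELR chemokines and their receptors, the CXCL12 and G-CSF axes, IL-1, TNF and IL-17 with their receptors, and regulators of NF-kappaB signalling and mRNA decay. In fibroblast-like cells 22 of the 24 were tested between genotypes and edgeR called 0. Of these, 7 were higher and 4 lower in Ccr2-/- at an unadjusted p below 0.05, beside 4450 of all 20606 genes in either direction. DESeq2 called 4 higher and 4 lower of 20, beside 1832 of all 15120 genes (12.1%). The list's median log2 fold change was -0.11 over the 22 genes of edgeR and 0.12 over the 20 of DESeq2. The genes that DESeq2 called higher were Csf3, Il1b, Il1r1 and Tnfrsf1a, and those it called lower were Ackr1, Cxcr4, Nfkbiz and Zfp36.

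The values of 4 of these genes follow, which were picked after their values were seen. Il1r1, the IL-1 receptor, had 285 and 189.5 CPM in WT against 396 and 336 in Ccr2-/- fibroblast-like cells (log2 fold change 0.68, SE 0.11, edgeR adjusted p = 0.066). Csf3, the gene of the neutrophil growth factor G-CSF, had 2.19 and 0.323 CPM in WT against 9.99 and 10.2 in Ccr2-/- (log2 fold change 3.33, SE 0.67, adjusted p = 0.084). The WT values of Csf3 rested on 88 and 10 reads, with 43.2% and 60% of them in 1 cell. In Ccr2-/- 1 cell held 23.8% and 12.8% of its reads. Thinned shares of fibroblast-like cells with a Csf3 read were 0.5%, 0%, 1.2% and 2.5%. Zfp36, which encodes tristetraprolin, a protein that speeds decay of cytokine mRNA, had 2583 and 2807 CPM in WT against 1777 and 1447 in Ccr2-/- (log2 fold change -0.71, SE 0.12, adjusted p = 0.070). Nfkbiz, an NF-kappaB cofactor, had 205 and 270.4 CPM in WT against 135 and 168 in Ccr2-/- (log2 fold change -0.62, SE 0.10, adjusted p = 0.063). Zfp36 and Cxcl12 were the most abundant of the list in fibroblast-like cells over all pools, with 1878 and 1200.2 CPM.

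In mononuclear phagocyte-like cells 20 of the 24 genes were tested and edgeR called 0. At an unadjusted p below 0.05 in edgeR, 0 were higher and 9 lower, beside 2427 of all 16434 genes in either direction. DESeq2 called 0 higher and 4 lower, which were Csf3r, Cxcr4, Il1b and Nfkbiz, beside 607 of all 13197 genes (4.6%). The median log2 fold change of the list was -0.38. Zfp36 and Nfkbia had the highest levels there, with 2513 and 1702 CPM over all pools. In blood endothelial-like cells edgeR tested 18 and called 0, with 2 higher and 3 lower at an unadjusted p below 0.05, beside 479 of all 12356 genes. DESeq2 tested 11 and called 0, beside 31 of all 5697 genes. Without the filter edgeR called Il1b and Ackr1 of 21, beside 55 of all 21640 genes.

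In neutrophil-like cells the list was led by Il1b, the gene of IL-1β, with 19761, 21601 and 24425 CPM in WT day 3 and in Ccr2-/- at days 3 and 5, and by Nfkbia, an inhibitor of NF-kappaB, with 7344, 6862 and 6733 CPM. Csf3r, the G-CSF receptor, was among the genes that set the gate. Cxcr4 had 305, 236 and 249 CPM there. Cxcr1, the other ELR chemokine receptor, had 4.4, 20 and 7.8 CPM. Basophil-like cells had Nfkbia and Zfp36 highest, with 4762 and 4732 CPM over all pools. Ppbp and Cxcl15, which lie among the ligand genes on chromosome 5, stayed at or below 8.1 and 5.5 CPM in neutrophil-like, basophil-like, mononuclear phagocyte-like, fibroblast-like, blood endothelial-like and T cell-like cells. Ackr1, a decoy receptor that binds these chemokines on venules, had 710.4, 580.2, 111 and 466 CPM in blood endothelial-like cells of the 4 pools.

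Likeness of pattern was measured as Pearson's r of log2(CPM + 1) over 34 sums of cells (12 types in up to 4 pools), among 10111 genes. These sums share 1 library and pools, so the values are a description of the pattern. Genes most like Cxcr2 were Acod1 (r = 0.91), Ptgs2os2 (0.85) and Ddx3x (0.85). Those most like Cxcl2 were Hcar2 (0.90), Clec4d (0.89) and Acod1 (0.89), and those most like Cxcl5 were Col3a1, Tnfaip6 and Col1a2 (0.93 each). Col3a1 and Col1a2 were among the genes that set the fibroblast-like gate. Their likeness to a gene read mostly in fibroblast-like cells was thus largely fixed by the gate. Cxcr2 itself had r = 0.81 with Cxcl2, 0.56 with Cxcl3, 0.00 with Cxcl1 and -0.01 with Cxcl5. Cxcl5 had r = 0.66 with Cxcl1.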

How the data were processed

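Both deposited tables hold counts of reads. Per the labels, the authors trimmed reads with cutadapt and aligned them with Bowtie2 to GRCm38.p6, and the matrix gives reads per gene and barcode above the inflection of the knee plot, from 10000 cells loaded. The second file holds reads per hashtag, and its 9 other hashtag columns were not used. A background correction is named in the methods but was not visible in the counts.

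Barcodes went to the hashtag that led by 3-fold (pseudocount 1 read, division by hashtag totals) with at least 10 hashtag reads. Those with over 20% mitochondrial reads or under 200 genes were left out. Several hashtags marked 570 barcodes as doublets, doublets within a pool remain, and no doublet caller was run. Marker scores (18 lists, without the 5 genes) gated cells: a score of at least 0.3 (0.6 for fibroblasts, since collagen reads were present in other types) and a lead of 0.1. Levels were given for at least 20 cells, with Poisson and Clopper-Pearson 95% intervals for counting error only. PCR copies were not removed.

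Reads summed per pool and type were tested with edgeR 4.0.16 (quasi-likelihood, TMM, filterByExpr, genotype and day, 1 residual degree of freedom, Benjamini-Hochberg over all genes), with DESeq2 1.42.0 as an alternative, in R 4.3.3. Pools are single samples of unstated numbers of mice, with 1 pool per genotype and day. The p-values thus rest on a spread that holds how far the genotype difference varied between days. That spread also holds differences between pools, which may be technical. Fits were tested on simulated data. Folds between single pools had no test, and a limit of 2-fold was counted over genes of at least 10 CPM. Leiden clusters used scanpy 1.11.5.

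Genes and lists were chosen with earlier results of these data known. The 5 genes were always named. Of the pathway list the 2 highest per cell type and those called were named, and for likeness the 3 highest correlations among genes of at least 10 CPM on average. Positions come from a GENCODE annotation of GRCm38.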

Additional observations from a re-analysis of the deposited data

Results flagged for a closer look

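In mononuclear phagocyte-like cells 3 of the ligand genes moved in opposite directions between days in WT and in Ccr2-/-, beyond counting error, with 1 pool at each point. Cxcl1 was 1.56 times as high at day 5 as at day 3 in WT and 0.598 times as high in Ccr2-/-, and the second ratio divided by the first is 0.383. Without cells of over 100000 reads the Cxcl1 levels were 371 and 581 CPM in WT against 202 and 159 in Ccr2-/-, with the same directions. For Cxcl2 the ratios were 1.38 and 0.743, with a quotient of 0.539. For Cxcl3 they were 0.340 and 1.68, with a quotient of 4.95. These differences between genotypes were not tested, and 1 cell held 76.2% and 1 cell 73.8% of the Cxcl3 reads of Ccr2-/- at days 3 and 5. In blood endothelial-like cells Cxcl2 had ratios of 0.136 and 1.87, with a quotient of 13.7, also not tested. Of these Cxcl2 reads, 1 of 74 cells held 66.1% in WT day 3, and 2 cells held at least 50% in each Ccr2-/- pool. WT day 5 had 28 such cells.

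Reads of the 5 genes were also present in barcodes that went to no pool. The 712 barcodes with few hashtag reads had 2425 CPM of Cxcl1, 310 CPM (309.6) of Cxcl2, 8.01 CPM of Cxcl3, 1237 CPM of Cxcl5 and 16.2 CPM of Cxcr2. The 529 barcodes with several hashtags had 1860 CPM (1859.9) of Cxcl1, 1156 CPM of Cxcl2, 47.6 CPM of Cxcl3, 1837 CPM of Cxcl5 and 71.0 CPM of Cxcr2. They held 10.2% of all Cxcl5 reads of the matrix.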

How the results depend on the processing

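The share of Cxcl2 reads in neutrophil-like cells kept its order between genotypes in each of the 6 settings for cells and gates. For WT day 3 (13%) it was 14.1% at a hashtag ratio of 10, 14.2% with Leiden clusters, 18.0% without cells of over 100000 reads and 11.9% without the cell with the most reads. For WT day 5 (1.8%) it was 1.63%, 2.91%, 2.86% and 0.751% in that order, and 0.743% with a stricter gate. For Ccr2-/- day 3 (62.9%) it was 63.7%, 67.1%, 78.7% and 62.6%, and 58.5% with a stricter gate. For Ccr2-/- day 5 (74.6%) it was 75.8%, 80.6% and 85.0% in the first 3, 72.4% with a stricter gate and 74.7% at a mitochondrial limit of 10%.

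Counts of called genes depended on the settings. Between genotypes, fibroblast-like cells (0 in edgeR) had 1832 in DESeq2, 11 at a hashtag ratio of 10, 1 with Leiden clusters and 996 with no filter. Where a pool was left out, the other factor (day or genotype) was also dropped from the model, so these values change 2 choices at once. They gave 0 to 1083, the highest without WT day 3 and with no day term. Mononuclear phagocyte-like cells (0) had 607, 1 with Leiden clusters and 802 with no filter, and 0 to 3 with a pool left out. Blood endothelial-like cells (0) had 31, 1 at a hashtag ratio of 10, 10 with Leiden clusters and 55 with no filter, and 0 to 4. Between days, blood endothelial-like cells (1) had 4 in DESeq2, 2 with Leiden clusters, 0 without TMM, 17 with no filter and 0 to 10 with a pool left out. Fibroblast-like cells had 143 in DESeq2. Mononuclear phagocyte-like cells had 129 in DESeq2, 186 with no filter and 0 to 1 with a pool left out. The cause was not tested.

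Cxcl5 in fibroblast-like cells passed between genotypes in DESeq2 (2.06), with no filter (2.09) and without WT day 3 (2.58), and its log2 fold change was 1.56 to 2.58 with a pool and the day term left out. A lone pool is then assumed to vary like the others. With a pool left out the fit between days had no genotype term, so its values mix the genotypes, and some signs in fibroblast-like cells turned: Cxcl1 to 0.11 and Cxcl5 to 0.68 without Ccr2-/- day 3, Cxcl5 to 0.35 without WT day 5, and Cxcl3 to -0.45 and Cxcr2 to -0.010 without Ccr2-/- day 5. Within a genotype the Cxcl5 ratio of day 5 to day 3 was 0.495 in WT and 0.855 in Ccr2-/-, below 1 in both. The mixed values spanned -0.36 to 0.11 for Cxcl1, -0.45 to 1.59 for Cxcl3, -2.09 to 0.68 for Cxcl5 and -0.010 to 0.50 for Cxcr2. Cxcr2 between genotypes in mononuclear phagocyte-like cells (0.04) was -0.015 at a hashtag ratio of 10, -0.12 without Ccr2-/- day 5, -0.02 without WT day 5 and -0.0015 without TMM, and it spanned -0.12 to 0.20 with a pool left out. Of 31 levels, 6 moved by over 1.5 times without cells of over 100000 reads (4 of them Cxcl5 in fibroblast-like cells), 2 as the mean over cells and 1 without its highest cell. Among Leiden clusters named fibroblast-like, 4 had only 0.272 to 3.77% of their cells gated so. The labels give the pools no replicate numbers, and the fit between genotypes matched pools by day through its day term.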
